A study of Mus musculus with 3 samples.

Results

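The D-type cyclins and the inhibitors of cyclin-dependent kinases (CDKs) are described here in RM1 cells, a mouse prostate cancer cell line transformed with ras and myc. The set held 10 genes, taken by symbol: Ccnd1, Ccnd2, Ccnd3, Cdkn1a, Cdkn1b, Cdkn1c, Cdkn2a, Cdkn2b, Cdkn2c and Cdkn2d. Every noncontrol probe that the array files assign to one of these symbols was taken, which gave 16 probes out of 39429 distinct probes on the array. RM1-MXRA7 cells carried transfected MXRA7 (matrix remodelling associated 7), whereas RM1-VE cells had received the vehicle vector, and both lines were kept in DMEM with fetal serum and G418. Total RNA was taken in exponential growth on day 2 and compared on 3 Agilent 2-colour arrays, with RM1-MXRA7 in Cy3 and RM1-VE in Cy5 on each of them. Each array gave a log2 ratio of RM1-MXRA7 over RM1-VE, and the 3 arrays limit the precision. Whether each line was a clone or a pool, which species and which part of MXRA7 the construct carried, and whether the 3 replicates were separate cultures are not given in the sources used here. The p-values therefore measure only the spread between these arrays, which may be technical.

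D-type cyclins are made in response to mitogens and bind CDK4 and CDK6, and these kinases phosphorylate the retinoblastoma protein and so release E2F transcription factors at the start of S phase. Inhibitors of the INK4 family (Cdkn2a to Cdkn2d) bind CDK4 and CDK6 directly and keep the D-type cyclins off them. Inhibitors of the CIP/KIP family (Cdkn1a to Cdkn1c) bind cyclin and kinase together, block CDK2 most strongly and, at low levels, help cyclin D and CDK4 to assemble.

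Between 21983 and 23166 probes per array were well above background in RM1-MXRA7, and between 21767 and 24175 in RM1-VE. The log ratios ran along the rows of the arrays. Mean log2 ratios are therefore given before and after removal of a smooth surface over the array. This surface held 19.8 to 27.4% of the variance of the log ratios. Intensities and ratios of single arrays are given before removal unless stated. A probe is said to have risen or fallen only where limma gave a Benjamini-Hochberg adjusted p under 0.05 in the same direction both times, with p adjusted over 21792 probes that were well above background in at least 1 line on all 3 arrays. Across the tested probes, values after surface removal had a Spearman correlation of 0.916 with Agilent's own processed signals, against 0.71 before it. The scanner software detrends those signals by itself, from the same scans. The correlation is therefore a description over probes that share the 3 arrays, and no outside check on the removal. The dye orientation was the same on every array, so probe-specific dye bias and a real line difference cannot be told apart for any value below. Mxra7 itself had 2 tested probes, and the brighter one gave log2 ratios of 0.39, 0.39 and 0.15 on arrays 1 to 3 (limma adjusted p = 0.00446), and 0.01 ± 0.05 (SD, n = 3) once the surface was removed (limma adjusted p = 0.914). The dimmer one had a log2 ratio of 0.10 before and 0.09 after surface removal (limma adjusted p = 0.279 and 0.236). Neither was called, and whether the probes match the transfected sequence is not given. Among marker genes, 3 of 5 epithelial and 4 of 5 mesenchymal ones were well above background in both lines, whereas Epcam, Cdh1 and the prostate genes Hoxb13, Pbsn and Tmprss2 were not. Of endothelial markers, 4 of 5 were above background in both lines, all but Tek, and of leukocyte markers Cd3e, Cd68 and Itgam were, but Ptprc was not. The endothelial cadherin Cdh5 had log2 ratios of -0.87 before and -0.77 after surface removal and was called lower. Cd3e was called lower too, with -0.29 and -0.19, while the matrix gene Fn1 had 0.73 and 0.90 and was called higher. The part of other cells in the results was not tested.

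Of the 16 probes, 12 probes of 8 genes passed the filter on dim probes and were tested. The count was 1 higher in RM1-MXRA7, 3 lower and 8 neither. Among all 21792 tested probes, 11.3% were called higher and 12.2% lower, and 1 of 12 and 3 of 12 are too few probes to be read as a result about the set. The 3 probes that were lower measured Cdkn1c, Ccnd2 and Cdkn1a (1 of its 3 probes), and the probe that was higher measured Cdkn2c. The median absolute log2 ratio after surface removal was 0.164 over the 12 probes and 0.125 over all tested probes. Their median SD between arrays was 0.22, against 0.095 for all tested probes.

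**Figure D1:**
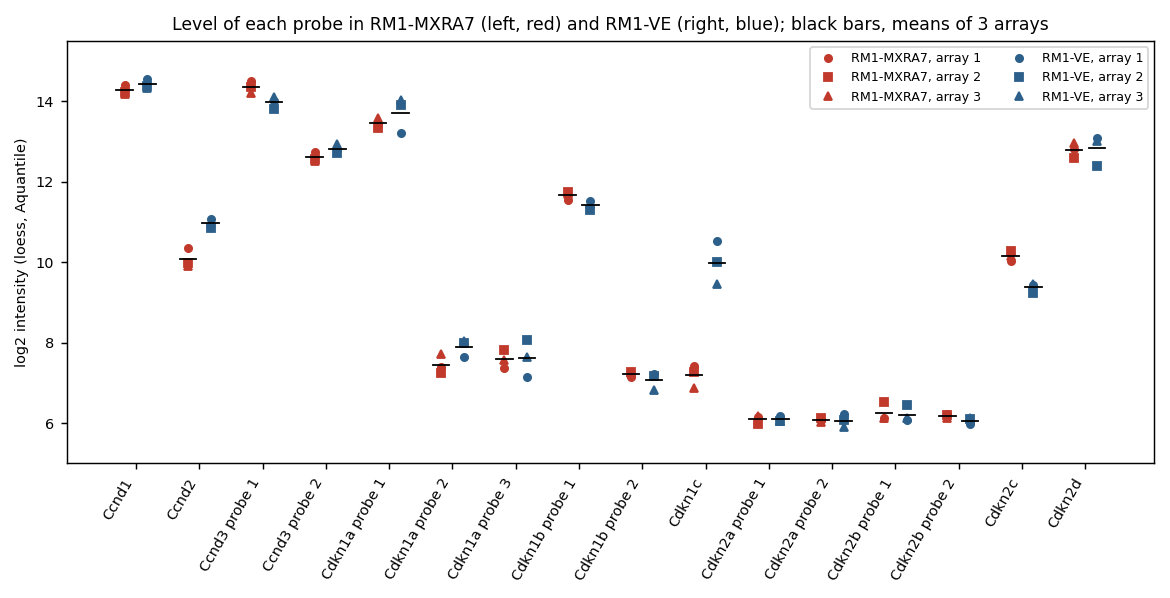
Log2 intensity of each of the 16 probes on each array (vertical axis), RM1-MXRA7 in red on the left of each pair and RM1-VE in blue on the right, with black bars for the means of 3 arrays. Cdkn1c sat at 6.89 to 7.41 in RM1-MXRA7 and 9.45 to 10.52 in RM1-VE, while both Cdkn2a and both Cdkn2b probes lay at the bottom of the scale in both lines. Levels of different probes are not on a common scale, since probes differ in how well they hybridise.

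**Figure D2:**
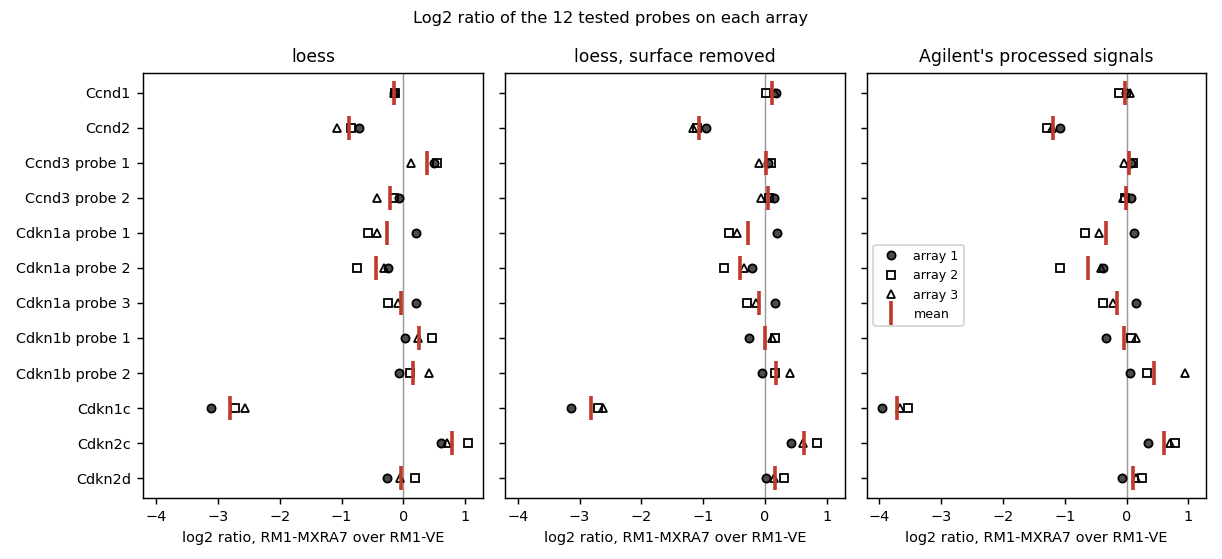
Log2 ratio of RM1-MXRA7 over RM1-VE (horizontal axis) of the 12 tested probes on each array, with the mean as a red bar, for loess-normalised values, the same after surface removal, and Agilent's processed signals. Cdkn1c and Ccnd2 lay left of 0 and Cdkn2c right of 0 on every array in all 3 panels, while both Ccnd3 probes moved to near 0 after surface removal.

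Among the D-type cyclins, Ccnd2 fell in RM1-MXRA7. It encodes cyclin D2, a partner of CDK4 and CDK6 that in mice is needed for granulosa and B cell proliferation. Its probe is shown because it is the probe behind the clearest cyclin result and runs open in 2 of its 3 reading frames. It lies on the minus strand at chr6:127098696-127098755 (mm9, per the array files), and its sequence is given in lower case with no part marked.
Ccnd2 probe: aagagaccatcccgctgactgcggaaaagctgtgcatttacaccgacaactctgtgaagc
Its log2 intensities were 10.36, 9.99 and 9.91 in RM1-MXRA7 on arrays 1 to 3, against 11.08, 10.84 and 10.98 in RM1-VE. The groups did not overlap, and RM1-MXRA7 was the dimmer line on each array. The log2 ratios were -0.72, -0.85 and -1.08, a mean of -0.88 ± 0.18 (SD, n = 3) or 1.84-fold lower (limma adjusted p = 4.37e-07). After surface removal the mean was -1.08 ± 0.11 (SD, n = 3), 2.11-fold lower (limma adjusted p = 4.41e-06). The processed signals, which the scanner software detrends by itself, were 635, 479 and 464 in RM1-MXRA7 and 1321, 1145 and 1103 in RM1-VE. Ccnd2 kept its call in all 12 alternative settings, with log2 ratios between -1.20 and -0.78.

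Ccnd1 encodes cyclin D1, the D-type cyclin most often amplified in human tumours. Its probe, at chr7:152116202-152116261 on the minus strand (mm9), had log2 intensities of 14.40, 14.23 and 14.17 in RM1-MXRA7, against 14.55, 14.37 and 14.33 in RM1-VE. The ranges overlapped between arrays, although the RM1-MXRA7 value was the lower one on each array. The log2 ratio was -0.15 ± 0.01 (SD, n = 3; limma adjusted p = 0.108) before surface removal and 0.12 ± 0.09 (SD, n = 3; limma adjusted p = 0.168) after it, with a 95% interval from -0.02 to 0.26. Its direction thus turned with the surface, and no difference between the lines passed the test before or after removal.

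Ccnd3 encodes cyclin D3, known for its part in lymphocyte and muscle development. It had 2 probes on chromosome 17. Probe 1 (chr17:47736579-47736638, plus strand, mm9) had log2 intensities of 14.49, 14.36 and 14.21 in RM1-MXRA7 and 14.01, 13.81 and 14.10 in RM1-VE, without overlap. Probe 2 (chr17:47736267-47736326, plus strand, mm9) had 12.73, 12.56 and 12.52 in RM1-MXRA7 and 12.80, 12.71 and 12.95 in RM1-VE, with overlap. The probes thus pointed in opposite directions before surface removal. Their mean log2 ratios were 0.38 ± 0.23 (limma adjusted p = 0.00205) and -0.22 ± 0.19 (limma adjusted p = 0.0411), each with SD over n = 3. Probe 1 stood towards one end of the array, in the same row as the Ccnd2 probe, and probe 2 towards the other end, and the surface removed there averaged 0.37 and -0.27. After surface removal both lay near 0, at 0.01 ± 0.10 and 0.05 ± 0.11 (SD, n = 3; limma adjusted p = 0.879 and 0.558). Their 95% intervals then ran from -0.13 to 0.15 and from -0.09 to 0.19 on the log2 scale. No change of Ccnd3 was called.

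Among the CIP/KIP inhibitors, Cdkn1c fell the most of all members. It encodes p57, an inhibitor that is expressed from the maternal allele in mice and is known for cell cycle exit in embryonic tissues. Its single probe lies on the minus strand at chr7:150644753-150644812 (mm9). The log2 intensities were 7.41, 7.27 and 6.89 in RM1-MXRA7, against 10.52, 9.99 and 9.45 in RM1-VE. The lines did not overlap, and the probe was well above background in both lines on all 3 arrays. The processed signals were 38.4, 34.7 and 22.1 in RM1-MXRA7 and 584.8, 391.5 and 289.9 in RM1-VE. The log2 ratios were -3.11, -2.72 and -2.56, with a mean of -2.80 ± 0.28 (SD, n = 3), or 6.95-fold lower (limma adjusted p = 3.9e-13). Surface removal left a mean of -2.82 ± 0.28 (SD, n = 3; limma adjusted p = 1.01e-07), 7.05-fold lower. Agilent's processed signals gave 13.2-fold lower (limma adjusted p = 1.17e-05). No offset is added to those intensities, whereas the loess values carry an offset of 50. Loess on intensities with neither background correction nor offset gave a log2 ratio of -2.79. The local background stays in both channels there, so that value does not isolate the effect of the offset. The cause of the larger fold with Agilent's signals was not tested. Of the 21792 tested probes, 11 had a larger absolute log2 ratio than Cdkn1c, and 13 after surface removal. Cdkn1c kept its call in all 12 alternative settings, with log2 ratios between -3.72 and -2.64.

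The genes whose log2 ratios on the 3 arrays lay nearest to those of Cdkn1c were Oas1a, an interferon-induced oligoadenylate synthetase, Tmem185b and Fahd2a. Their Euclidean distances over 3 arrays were 0.33, 0.44 and 0.47 on the log2 scale. Oas1a had log2 ratios of -2.82, -2.59 and -2.47 on arrays 1 to 3, and a mean of -2.91 after surface removal. The likeness is a description of 3 values per gene.

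Genes next to Cdkn1c were read because it lies in an imprinted cluster on chromosome 7 with the noncoding RNA Kcnq1ot1. Of 18 genes listed for this cluster and its surroundings, 14 were tested, with 4 lower, 0 higher and 10 neither. Among all 16819 genes, 12.9% were called lower and 11.2% higher. The median log2 ratio of the 14 was -0.13 before and -0.10 after surface removal, against -0.02 and 0.00 for all genes. Phlda2, an imprinted gene that limits placental growth, had log2 intensities of 8.55, 7.98 and 7.92 in RM1-MXRA7, against 9.70, 9.13 and 9.15 in RM1-VE. The lines did not overlap, and the mean ratio was -1.18 ± 0.05 on the log2 scale (SD, n = 3; limma adjusted p = 2.55e-09). Slc22a18, an imprinted membrane transporter, had 9.91, 10.01 and 10.12 in RM1-MXRA7 and 10.61, 10.93 and 10.89 in RM1-VE. These did not overlap either, and the mean ratio was -0.79 ± 0.11 on the log2 scale (SD, n = 3; limma adjusted p = 6.98e-07). The probes of Slc22a18 and Phlda2 lie 40.4 and 42.7 kb from the Cdkn1c probe on one side. On the other side, at -391 and -439.4 kb, the tetraspanins Cd81 and Tspan32 fell as well, with log2 ratios of -0.93 ± 0.49 and -0.65 ± 0.09 (SD, n = 3). A dimmer Tspan32 probe had log2 ratios of 0.01 before and -0.04 after surface removal. After surface removal Phlda2, Slc22a18, Cd81 and Tspan32 had log2 ratios of -1.09, -0.68, -0.81 and -0.55, with limma adjusted p-values between 3.05e-06 and 0.00206. The tested genes between these points were not called in both. Kcnq1ot1, whose transcription silences the paternal cluster, had log2 ratios of 0.17 before and 0.02 after surface removal (limma adjusted p = 0.0693 and 0.812). Kcnq1, the potassium channel gene nearest to the Cdkn1c probe, had -0.38 and -0.34 (limma adjusted p = 0.0123 and 0.0623). Tssc4 had 0.56 before surface removal (limma adjusted p = 2.27e-05) and 0.15 after it (limma adjusted p = 0.0693). Igf2 and H19, at the far end of the imprinted region, did not pass the filter on dim probes.

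**Figure D3:**
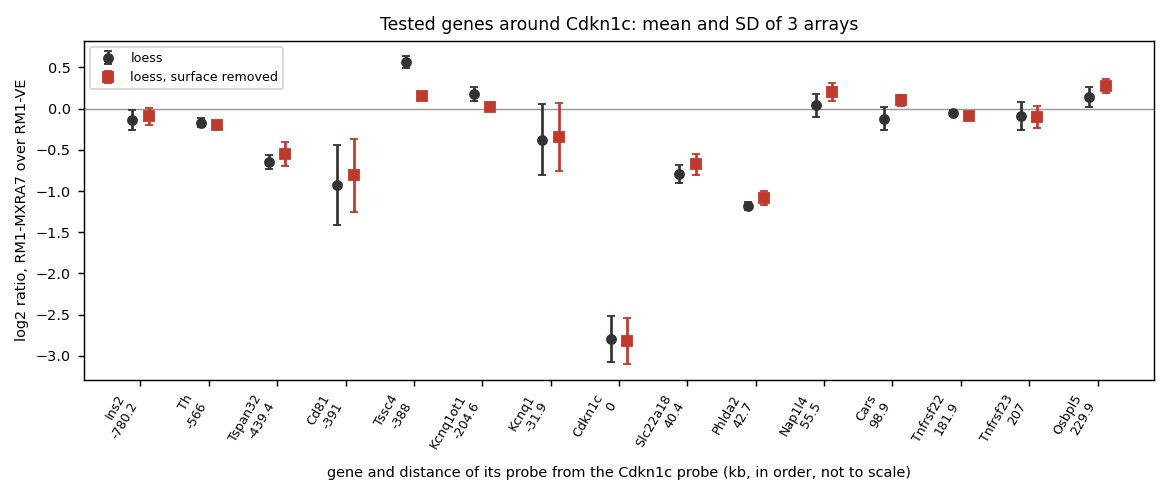
Mean log2 ratio of RM1-MXRA7 over RM1-VE (vertical axis, bars for the SD of 3 arrays) of Cdkn1c and the 14 tested genes around it, in the order of their probes along the chromosome (horizontal axis, with the distance of each probe from the Cdkn1c probe in kb), before surface removal in black and after it in red. Cdkn1c at -2.80 stands below all others, and Phlda2, Slc22a18, Cd81 and Tspan32 lie below 0 with and without the surface.

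Cdkn1a encodes p21, the CDK inhibitor that p53 induces after DNA damage, and its 3 probes gave different answers. Probe 1, at chr17:29237377-29237436 (plus strand, mm9), was spotted 10 times per array. Its log2 intensities were 13.41, 13.33 and 13.59 in RM1-MXRA7, against 13.21, 13.90 and 14.02 in RM1-VE. RM1-VE was the dimmer line on array 1 and the brighter line on arrays 2 and 3, so the groups overlapped. The log2 ratios were 0.20, -0.57 and -0.43, with a mean of -0.26 ± 0.41 (SD, n = 3; limma adjusted p = 0.0572), and surface removal left -0.28 ± 0.42 (SD, n = 3; limma adjusted p = 0.115). Without array 1 the mean was -0.50 (limma adjusted p = 4.88e-05) before surface removal. That threshold was also passed with all 3 arrays under median centring (-0.75, limma adjusted p = 0.00174) and with the filter on both channels (limma adjusted p = 0.0464).

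The 10 spots of probe 1 show how far the ratio of 1 probe sequence ranged over an array. They stood in rows 54 to 503. Before surface removal their log2 ratios ran from 0.01 to 0.53 on array 1, from -0.83 to -0.19 on array 2 and from -0.73 to -0.23 on array 3. After surface removal they ran from 0.09 to 0.29 on array 1, from -0.71 to -0.53 on array 2 and from -0.52 to -0.36 on array 3. The SD between spots of an array, which was 0.183 to 0.249 before removal, was 0.049 to 0.079 after it. On array 1 some trend with the row was left, in the other direction, while arrays 2 and 3 showed no steady rise. After removal the spots in rows 54 and 503 had 0.134 and 0.285 on array 1. They had -0.705 and -0.582 on array 2 and -0.469 and -0.355 on array 3. The spot in row 96 had -0.562 on array 2 and -0.5 on array 3, so the end rows alone do not show a trend there. The arrays still differed after removal, as array 1 lay above 0 at each spot and arrays 2 and 3 below 0 at each spot.

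**Figure D4:**
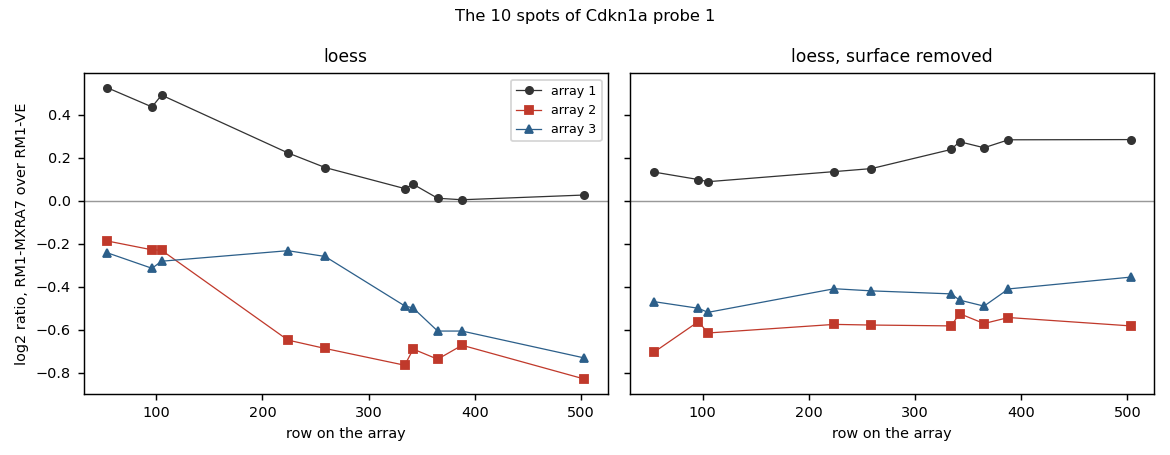
Log2 ratio of RM1-MXRA7 over RM1-VE (vertical axis) of the 10 spots of Cdkn1a probe 1 against their row on the array (horizontal axis), with 1 line per array, before surface removal on the left and after it on the right. On the left the ratios decline with the row by up to 0.64. On the right they span at most 0.20 per array, with array 1 above 0 and arrays 2 and 3 below it. There the last row lies above the first on each array.

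Probe 2 of Cdkn1a (chr17:29227986-29228045, plus strand, mm9) is assigned to another RefSeq transcript than probe 1 and lies towards the upstream end of the locus. Its log2 intensities were 7.39, 7.24 and 7.72 in RM1-MXRA7, against 7.65, 7.99 and 8.04 in RM1-VE. RM1-MXRA7 was the dimmer line on each array, although the ranges of the lines overlapped slightly. The log2 ratios were -0.25, -0.74 and -0.32, a mean of -0.44 ± 0.27 (SD, n = 3) or 1.35-fold lower (limma adjusted p = 0.00101). After surface removal the mean was -0.41 ± 0.24 (SD, n = 3; limma adjusted p = 0.00706), so this probe was called lower. The call was lost where the channels were fitted apart with no array block (limma adjusted p = 0.101). Probe 3 (chr17:29235299-29235358, plus strand, mm9), assigned to an Ensembl transcript, had log2 intensities of 7.36, 7.83 and 7.56 in RM1-MXRA7 and 7.16, 8.07 and 7.65 in RM1-VE. The ranges overlapped, and the log2 ratio was -0.04 ± 0.23 (SD, n = 3; limma adjusted p = 0.714) before surface removal. After it the ratio was -0.09 ± 0.23 (SD, n = 3; limma adjusted p = 0.409). On all 3 probes array 1 had the highest ratio and array 2 the lowest.

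RefSeq (GRCm38.p6) lists 2 starts for Cdkn1a, and both promoters are printed because the probes read more than 1 transcript. Each runs from 250 bases before to 50 after the start. Motifs were searched on both strands in the promoters of the members: the GC box GGGCGG, the TATA motif TATAAA, the E-box CACGTG, an E2F motif spelled TTTGGCGC, TTTCCCGC or TTTCGCGC, and the p53 half-site. Of 32851 promoters of the same length, 35.7% held the GC box, 13.6% TATAAA, 7.15% CACGTG, 1.84% the E2F motif and 8.36% the p53 half-site. Capitals mark p53 half-sites in the upstream promoter at chr17:29090729-29091028 and GC boxes in the downstream promoter at chr17:29093519-29093818, both on the plus strand.
Cdkn1a upstream promoter: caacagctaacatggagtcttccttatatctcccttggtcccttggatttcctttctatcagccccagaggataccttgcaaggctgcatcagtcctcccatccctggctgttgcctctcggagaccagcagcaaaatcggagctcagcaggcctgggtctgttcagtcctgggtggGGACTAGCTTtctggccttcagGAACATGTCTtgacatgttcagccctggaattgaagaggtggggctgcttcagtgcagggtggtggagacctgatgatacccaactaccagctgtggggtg
Cdkn1a downstream promoter: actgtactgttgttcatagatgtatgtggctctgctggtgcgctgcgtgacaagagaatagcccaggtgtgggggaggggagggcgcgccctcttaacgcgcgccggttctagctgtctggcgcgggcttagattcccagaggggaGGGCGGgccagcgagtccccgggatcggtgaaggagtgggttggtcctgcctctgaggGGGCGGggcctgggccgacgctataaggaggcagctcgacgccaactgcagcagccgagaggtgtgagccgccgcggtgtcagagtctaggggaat
The upstream promoter held 2 p53 half-sites and 0 GC boxes, with 54.7% G or C. The downstream one held 2 GC boxes and 0 p53 half-sites, with 64.7% G or C, against a median of 52.7% over all promoters. The matches are a description of these letters, and the files do not tie a probe to a start.

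Cdkn1b encodes p27, an inhibitor known to rise in resting cells and to be degraded through Skp2 when they enter the cycle. Probe 1 (chr6:134875424-134875483, plus strand, mm9) had log2 intensities of 11.55, 11.76 and 11.69 in RM1-MXRA7, against 11.52, 11.28 and 11.46 in RM1-VE. RM1-MXRA7 was brighter on each array and the groups did not overlap, by a margin of 0.03 on array 1. The log2 ratio was 0.25 ± 0.22 (SD, n = 3; limma adjusted p = 0.0275) before surface removal and 0.00 ± 0.23 (SD, n = 3; limma adjusted p = 0.977) after it. The 95% interval then ran from -0.18 to 0.19, and the surface removed at this spot averaged 0.24. Probe 2 (chr6:134873606-134873665, plus strand, mm9) had log2 intensities of 7.14, 7.28 and 7.24 in RM1-MXRA7 and 7.22, 7.17 and 6.82 in RM1-VE. These overlapped, and the log2 ratio was 0.15 ± 0.25 (SD, n = 3; limma adjusted p = 0.17) before surface removal. After it the ratio was 0.173 ± 0.225 (SD, n = 3; limma adjusted p = 0.136). No change of Cdkn1b was called.

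Among the INK4 inhibitors, Cdkn2c rose in RM1-MXRA7. It encodes p18, which restrains CDK4 and CDK6 and whose loss in mice gives enlarged organs and pituitary tumours. Its probe, at chr4:109333508-109333567 on the minus strand (mm9), had log2 intensities of 10.02, 10.28 and 10.16 in RM1-MXRA7, against 9.42, 9.23 and 9.46 in RM1-VE. The groups did not overlap, and RM1-MXRA7 was the brighter line on each array. The log2 ratios were 0.60, 1.04 and 0.70, a mean of 0.78 ± 0.23 (SD, n = 3) or 1.72-fold higher (limma adjusted p = 3.39e-06). After surface removal the mean was 0.63 ± 0.21 (SD, n = 3), 1.55-fold higher (limma adjusted p = 0.000573), as the surface at this spot averaged 0.15. The processed signals were 492, 594 and 565 in RM1-MXRA7 and 380, 337 and 357 in RM1-VE. Cdkn2c kept its call in all 12 alternative settings, with log2 ratios between 0.49 and 0.87.

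The upstream of the 2 RefSeq promoters of Cdkn2c is printed because it belongs to the member that rose. It lies on the minus strand at chr4:109666707-109667006 (GRCm38.p6), and capitals mark its 4 GC boxes.
Cdkn2c upstream promoter: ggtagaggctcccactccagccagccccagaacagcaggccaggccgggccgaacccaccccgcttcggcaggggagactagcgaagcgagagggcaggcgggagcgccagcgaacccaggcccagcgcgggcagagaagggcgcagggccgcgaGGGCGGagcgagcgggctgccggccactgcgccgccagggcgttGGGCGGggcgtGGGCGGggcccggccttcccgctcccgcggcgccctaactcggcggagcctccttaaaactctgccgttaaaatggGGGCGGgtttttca
It was 73.3% G or C. The second Cdkn2c promoter was 44% G or C and held 0 GC boxes and 1 CACGTG. RefSeq entries were found for 7 of the 10 members, with 11 promoters in all. Of these, 9 held a GC box, 0 held TATAAA, 1 held the E2F motif, in Cdkn2a, and 2 held a p53 half-site, in Cdkn1a and Cdkn2d. Members with no called probe, such as Ccnd3 and Cdkn2d, held GC boxes as well.

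Cdkn2d encodes p19, the INK4 inhibitor that is known to oscillate with the cell cycle. Its probe (chr9:21092934-21092993, minus strand, mm9) had log2 intensities of 12.82, 12.60 and 12.96 in RM1-MXRA7, against 13.08, 12.40 and 13.02 in RM1-VE. The ranges overlapped and the order of the lines differed between arrays. The log2 ratio was -0.04 ± 0.23 (SD, n = 3; limma adjusted p = 0.703) before surface removal and 0.16 ± 0.15 (SD, n = 3; limma adjusted p = 0.111) after it. No difference was called.

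Neither Cdkn2a nor Cdkn2b was detected. Cdkn2a encodes p16 and, from another reading frame, the Mdm2 antagonist Arf, and Cdkn2b encodes p15, a target of TGF-beta signalling. Both Cdkn2a probes (chr4:88920543-88920602 and chr4:88920405-88920464, minus strand, mm9) were well above background on 0 of 3 arrays in RM1-MXRA7 and on 0 of 3 in RM1-VE. The same held for both Cdkn2b probes (chr4:88952720-88952779 and chr4:88952276-88952335, minus strand, mm9). Processed signals of the 4 probes lay between 2.05 and 8.60 in RM1-MXRA7 and between 1.77 and 9.83 in RM1-VE. Log2 intensities lay between 5.98 and 6.54 in RM1-MXRA7 and between 5.91 and 6.45 in RM1-VE. The dimmest probes counted as detected had 6.24 to 6.48 in RM1-MXRA7 and 6.10 to 6.46 in RM1-VE, so no fold is given. A deleted and a silent gene cannot be told apart from a level below background.

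Of 6 genes listed around Cdkn2a and Cdkn2b, 4 were well above background in both lines, with 1 higher and 0 lower, beside 11.2% and 12.9% of all genes. Mtap, the methylthioadenosine phosphorylase gene next to them, was one, with log2 intensities of 11.63, 11.68 and 11.27 in RM1-MXRA7 and 11.18, 11.58 and 11.15 in RM1-VE. Its probe lies at -94.3 kb from the first Cdkn2a probe, towards lower coordinates. Klhl9 and Focad were detected farther off on the same side. Elavl2, 1997.4 kb away on the other side, was the 1 gene of the 4 called higher, with log2 ratios of 0.25 before and 0.22 after surface removal (limma adjusted p = 0.0154 and 0.0234). Ifnb1 and Dmrta1 were not detected.

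The genes through which these members act were read from lists, which hold the members' partners, targets and regulators. Of 13 genes for CDK4, CDK6, CDK2 and their partners, 10 were tested, with 0 higher, 1 lower and 9 neither, each gene counted by its brightest probe. Over all 16819 genes, 11.2% were higher and 12.9% lower, and these shares are repeated with each list below. Cdk1, the mitotic kinase, was the 1 that fell, with log2 ratios of -0.32 before and -0.25 after surface removal (limma adjusted p = 0.00234 and 0.0155), and of its dimmer probes 1 of 2 was called lower too. Ccna2, cyclin A2, had -0.44 and -0.16 (limma adjusted p = 0.000324 and 0.0532). Cdc37, the cochaperone of CDK4, had 0.52 before and 0.01 after, and Cdc25a, a phosphatase that activates CDK2, -0.29 and -0.06, so neither was called. The brightest of 3 Cdk4 probes had 0.05 and 0.25 (limma adjusted p = 0.636 and 0.0118). The second had 0.00 and 0.34 (limma adjusted p = 0.981 and 0.00295), and the third had 0.58 and 0.29 (limma adjusted p = 1.89e-05 and 0.00533) and was the 1 probe of Cdk4 called higher. The probe for Cdk6 did not pass the filter.

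Of 18 retinoblastoma family and E2F genes, all tested, 2 were higher, 0 lower and 16 neither, beside 11.2% higher and 12.9% lower over all genes. Rbl2, the p130 pocket protein of resting cells, rose with log2 ratios of 0.64 before and 0.56 after surface removal (limma adjusted p = 3.13e-05 and 0.00121). Lin54, the DNA-binding subunit of the DREAM complex in which p130 acts, rose with 0.53 and 0.33 (limma adjusted p = 0.000102 and 0.00579). Tfdp1, the dimer partner of E2F factors, had 0.39 and 0.04 (-0.06 and 0.14 on a dimmer probe), and E2f8, a repressive E2F, 0.34 and 0.13, and neither was called. The list's median after surface removal was 0.05.

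Of 25 E2F target genes of the G1/S transition, 24 were tested, with 2 higher, 3 lower and 19 neither, near the 11.2% and 12.9% of all genes, and a median of 0.08 after surface removal. Cdc6, which loads the replicative helicase, had 0.55 and 0.27 (limma adjusted p = 0.000135 and 0.0207) on its brighter probe and -0.15 and -0.12 on a dimmer one. Gins2, a subunit of that helicase, rose with 0.39 and 0.22, while Mybl2, a cell cycle transcription factor, fell with -0.62 and -0.42 (limma adjusted p = 5.26e-05 and 0.0139). Mcm7, another helicase subunit, had 0.58 before and 0.08 after surface removal (limma adjusted p = 1.71e-05 and 0.353).

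Of 18 genes for the turnover of the inhibitors and D-type cyclins, all tested, 2 were higher, 4 lower and 12 neither, against 11.2% higher and 12.9% lower of all genes. Skp2, the ubiquitin ligase subunit that targets p27, fell with log2 ratios of -0.48 before and -0.30 after surface removal (limma adjusted p = 0.000227 and 0.00848). Btrc, the F-box protein beta-TrCP, had -0.34 and -0.26 and was called lower, with 0.06 and 0.09 on a second probe. Fbxo4, an F-box protein described for cyclin D1, rose with 0.45 and 0.31 (limma adjusted p = 0.000353 and 0.00526). Fzr1, the activator of the anaphase-promoting complex in G1, had -0.53 and -0.24 (limma adjusted p = 5.22e-05 and 0.0558).

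Of 32 transcriptional regulators of the members, 30 were tested, with 6 higher, 2 lower and 22 neither, where all genes gave 11.2% and 12.9%, and a median of 0.09 after surface removal. Hes1, the Notch target that represses Cdkn1b and Cdkn1c in several tissues, rose with 0.47 and 0.38 (limma adjusted p = 0.000125 and 0.00139). Smad2, a transducer of TGF-beta signals, rose with 0.44 and 0.41, and Kdm6b, a histone demethylase that acts on Cdkn2a, with 0.41 and 0.23. Klf6, an activator of Cdkn1a, had 0.40 before and 0.09 after surface removal (limma adjusted p = 0.000467 and 0.263). Among 15 CDK5, atypical and other cyclin genes, all tested, 2 were higher, 1 lower and 12 neither, with the same 11.2% and 12.9% over all genes. Cdk5r1, the neuronal activator of CDK5, rose with 0.34 and 0.28 on its brighter probe (0.31 and 0.16 on a dimmer one, not called), and Ccnt1, the cyclin of transcription elongation, fell with -0.44 and -0.28. Ccnc had 0.35 and 0.17 (-0.18 and -0.09 on a dimmer probe) and Ccng1, a p53 target, -0.44 and -0.18, and neither was called in both.

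**Figure D5:**
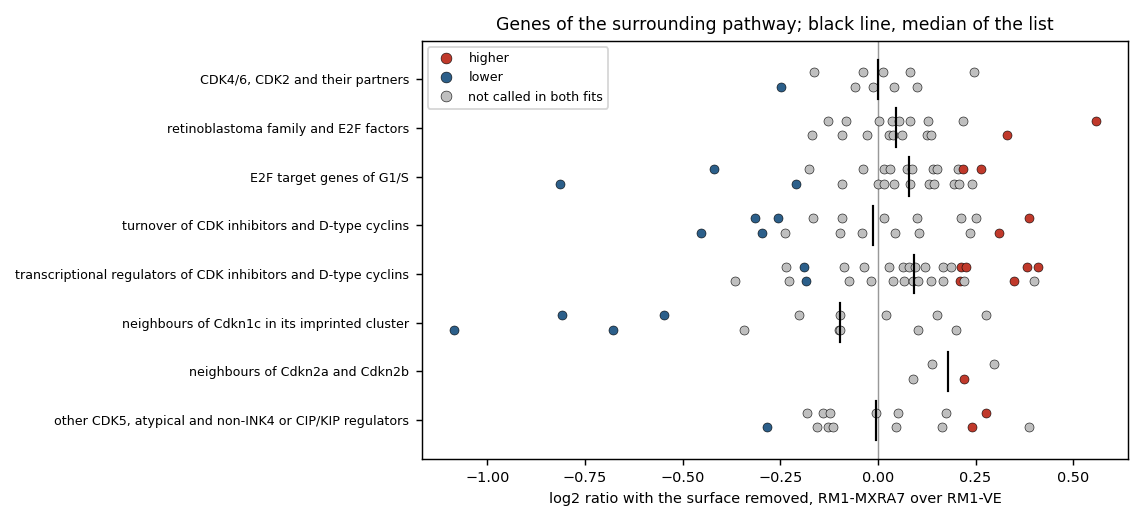
Log2 ratio of RM1-MXRA7 over RM1-VE after surface removal (horizontal axis) of each tested gene of the 8 lists (rows), with genes called higher both before and after surface removal in red, lower in blue and others in grey, and the list median as a black line. Medians lie between -0.10 and 0.18, and most points of each list are grey.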

How the data were processed

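Total RNA of RM1-MXRA7 (Cy3) and RM1-VE (Cy5) was measured on 3 Agilent 2-colour mouse arrays of 44397 spots, 1377 of them controls. Per the file headers, the authors deposited scanner output with the mean and background intensity of each spot in both channels, made with Agilent Feature Extraction 10.7.1.1 per the submitters' processing notes. Per the file headers, the deposited value table gives linear ratios. These matched Cy3 over Cy5 processed signal to within 1% in 99.56 to 99.68% of values, which settles scale and direction. Their medians of 1.02, 1.03 and 0.972 lie near 1 but were not set to it exactly. The 3 arrays shared 1 slide and 1 scan date, so no batch could be tested.

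Intensities were corrected with normexp (offset 50) and loess within each array in limma 3.58.1 (R 4.3.3), with control spots at weight 0 and spots of 1 probe averaged. Levels are log2 values after loess and Aquantile. The surface removed per array was a polynomial of degree 4 over row and column, alone and times log2 intensity. Probes had to be well above background in 1 or both channels of all 3 arrays. Ratios entered lmFit and eBayes on the log2 scale. In lists a gene stands by its brightest kept probe, which gave 16819 genes. Symbols came from the array files, updated through RefSeq accessions for 27508 probes. Named genes are all 10 members, up to 4 per list with the smallest adjusted p, the 3 nearest in profile to the member with the largest ratio, and Mxra7. Cdk4, Cdk6, Kcnq1ot1, Kcnq1, Tssc4, Igf2, H19, Ifnb1 and Dmrta1 were named in addition, after their values were seen. The members and lists were chosen with earlier results of these data known. Only the surface removal and the limma fit were tested on simulated data. The simulated surface was the same on each array and of a form that the polynomial can fit. That test therefore does not show how well the surface of these arrays was removed. Alternatives covered the background correction, normalization, surface, filter, series matrix, arrays left out in turn, and separate channels fitted with or without an array block. Each array pairs the lines by hybridisation, so the ratio holds the pairing. Annotation of exons and UTRs was not used here, and some marker genes are not reported here.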

Additional observations from a re-analysis of the deposited data

How the results depend on the processing

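Ccnd2, Cdkn1c and Cdkn2c kept direction and call in all 12 alternatives, which are not 12 separate checks. Separate channels with an array block repeated the ratios and p-values of the main fit. The filter settings kept the same ratios and could change only the p-values. The series matrix holds nearly the same ratios as Agilent's processed signals. Loess alone called 3 member probes higher and 4 lower, and 5278 and 5035 of all tested probes. Higher member probes numbered 1 each with the surface removed, Agilent's processed signals, the series matrix, median centring and no replicate block. Lower ones numbered 7 with median centring and 2 with no replicate block. Leaving out 1 array gave 1 to 4 higher and 3 to 5 lower, the lowest higher count without array 2. Over all probes, 3459 were higher with the surface removed, 2195 (and 2565 lower) with Agilent's signals, 2507 (and 2614) with the series matrix, 1457 (and 1243) with no replicate block, and 3285 to 5020 (and 3243 to 4291) with 1 array left out. Median centring in place of loess gave 1287 higher and 12295 lower. The median over the tested probes was then -0.27, against -0.01 under loess. The centring itself used all unflagged noncontrol spots, including those of probes too dim to be tested. With median centring, Ccnd3 probe 1 turned to -0.16 and Cdkn1b probe 1 to -0.11. Ccnd1, at -0.71 (limma adjusted p = 3.71e-05), and Cdkn2d, at -0.467 (limma adjusted p = 0.00088), passed the threshold under median centring only. Cdkn1b probe 1 also turned to -0.04 with Agilent's signals and -0.033 with the series matrix, and Ccnd3 probe 2 turned to 0.051 with the surface removed. The causes were not tested. The offset weighs most, relative to signal, on dim probes such as Cdkn1a probes 2 and 3 and Cdkn1b probe 2. Its effect on their ratios was not tested. Without background correction or offset, where the local background stays in the signals, these probes had -0.464, -0.063 and 0.188. With Agilent's signals they had -0.625, -0.154 and 0.441.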
